A study of Mus musculus with 12 samples.

Results

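The genes described here are 10 antigen presentation genes that interferon gamma is known to induce, chosen by name for their role in MHC class I and class II presentation, out of 24552 gene symbols counted. They are B2m, H2-K1, H2-D1, Tap1, Psmb8, Psmb9, H2-Aa, H2-Ab1, Cd74 and Ciita, and all 10 had a row in the count table. The RNA was polyadenylated RNA of mouse macrophages that had been raised from bone marrow with the growth factor M-CSF. There were 4 groups of 3 biological replicates, 12 libraries in all, and nothing says whether the replicates came from separate animals. Cells of 2 groups were M1-like, made by exposure for 16 h to lipopolysaccharide at 10 ng/ml with interferon gamma at 25 ng/ml, and cells of the other 2 groups were M0. Within each state 1 group had vehicle (DMSO) and 1 had ISRIB at 50 nM, given from 1 h before stimulation, after 6 days of culture in M-CSF at 10 ng/ml. ISRIB is a compound that blunts the integrated stress response, by which stressed cells slow their protein synthesis. The labels give no mouse strain, sex or age, and leave unsaid what the M0 cells were given in place of the stimulus.

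MHC class I molecules show peptides made inside the cell to cytotoxic T cells. Proteasomes cut the peptides, the transporter associated with antigen processing carries them into the endoplasmic reticulum, and they bind there to a heavy chain paired with beta-2 microglobulin. MHC class II molecules show peptides from engulfed material to helper T cells, and their transcription depends on the coactivator CIITA. Interferon gamma acts on both pathways, and macrophages are a classic cell type in which it does so.

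Promoter sequences with a match to a searched motif are shown for B2m, H2-K1, H2-Aa and the stretch between Psmb9 and Tap1, as examples, since all 10 genes are known targets of one cytokine. RefSeq promoter entries on GRCm38.p6 were found for 7 of the 10 genes, and H2-Ab1, Cd74 and Ciita had none in the table used. The 250 bases before each start were searched on both strands for the interferon-stimulated response element GAAANNGAAA, the gamma-activated site TTCNNNGAA, the Y box CTGATTGG and the kappaB element GGGGATTCCCC. Among all 32851 promoters these letters occurred in 2.98%, 7.02%, 3.83% and 0.0304% respectively, the last being 10 promoters. In the B2m promoter (chr2:122147437-122147685, plus strand) the capitals mark the interferon-stimulated response element, 139 bases before the start. In the H2-K1 promoter (chr17:34000348-34000597, minus strand) they mark the kappaB element, which H2-D1 also held. In the H2-Aa promoter (chr17:34287824-34288073, minus strand) they mark the Y box, 51 bases before the start. The short site between Psmb9 and Tap1 (chr17:34187324-34187351, plus strand) carries 1 Y box, read on this strand as CCAATCAG. It lies upstream of both RefSeq starts, which point away from each other, and inside a longer Psmb9 exon of the GENCODE M21 annotation.
B2m: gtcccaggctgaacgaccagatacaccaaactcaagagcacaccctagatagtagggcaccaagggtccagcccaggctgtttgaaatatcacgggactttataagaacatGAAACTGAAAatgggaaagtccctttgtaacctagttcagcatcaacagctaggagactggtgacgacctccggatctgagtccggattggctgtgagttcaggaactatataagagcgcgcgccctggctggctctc
H2-K1: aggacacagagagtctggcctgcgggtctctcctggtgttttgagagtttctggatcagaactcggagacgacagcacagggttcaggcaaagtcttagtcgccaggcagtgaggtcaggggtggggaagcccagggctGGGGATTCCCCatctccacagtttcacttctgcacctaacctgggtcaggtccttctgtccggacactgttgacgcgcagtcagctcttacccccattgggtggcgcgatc
H2-Aa: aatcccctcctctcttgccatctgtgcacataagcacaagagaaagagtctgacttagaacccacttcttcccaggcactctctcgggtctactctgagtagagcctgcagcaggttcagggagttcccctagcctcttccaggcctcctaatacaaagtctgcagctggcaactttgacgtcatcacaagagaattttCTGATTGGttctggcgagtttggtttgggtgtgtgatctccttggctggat
Psmb9-Tap1 site: gctcggctttCCAATCAGcggctgcgcg
H2-D1 held a Y box as well, and Psmb8 a gamma-activated site 97 bases before its start. The promoters of H2-K1, H2-D1, H2-Aa, Psmb9 and Tap1 matched neither the interferon-stimulated response element nor the gamma-activated site. Each match is a description of letters, not of a bound site. Only these fixed letters were searched, so a missing match does not show that a promoter lacks such an element.

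Counts were low throughout. Library totals ran from 439976 to 514037 counts, so that 1 count was worth 1.79 to 2.57 CPM (a count relative to its library's TMM-adjusted total), and only 10978 of the symbols had a count in any library. Actb, which encodes beta-actin, averaged 142.0 counts a library and Gapdh, a glycolytic enzyme, 17.5. Of 24030 symbols matched to the GENCODE M21 annotation, 24.1% shared exon bases with a gene on the opposite strand, and these symbols held 92.3% of the matched counts (91.2% to 93.1% by library). The libraries were strand-specific per the labels' protocols, but the strand setting of the counting is not given in the sources used here. Reads of a gene and of its antisense partner therefore cannot be told apart in these counts. Had the reads been counted on the strand opposite to the kit's, each count below would be of reads antisense to the gene named, with or without an annotated partner, and whether this is so was not tested. Of the 10 genes, 4 have such a partner: Tap1 and Psmb9 share 212 bases with each other (chr17:34187553-34187764), Psmb8 shares 498 with Gm20496, and Ciita shares 329 with Dexi. The other 6 have none.

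Of the macrophage markers 10 of 10 had counts, but their summed level was 3495 to 3584 CPM in the M0 libraries and 290.4 to 653.8 in the M1 libraries with vehicle, and 3811 to 5063 and then 463.7 to 610.6 with ISRIB. The sum followed the scavenger receptor gene Cd163, with 1488 to 1501 counts in vehicle M0 and 1 to 8 in vehicle M1. Of 8 tested macrophage markers, 4 rose and 3 fell in vehicle, and 3 rose and 2 fell in ISRIB. Those higher in vehicle were Adgre1 by 1.66, Itgam by 2.16, Cd14 by 2.35 and Fcgr1 by 4.04 on the log2 scale, with edgeR adjusted p = 0.0300, 0.00130, 0.0112 and 0.00265. Cd163, Lyz2 and Csf1r were lower in vehicle, at -8.37, -2.26 and -1.31, with edgeR adjusted p = 1.25e-17, 3.53e-08 and 0.0145. Fcgr1 and Csf1r did not pass in ISRIB, with edgeR adjusted p = 0.0614 and 0.0602. The summed level of 6 dendritic cell markers was 48.6 to 68.0 CPM in M0 and 834.1 to 1037 in M1 with vehicle, and 45.8 to 123.6 and 957.8 to 1070 with ISRIB. The sum followed the chemokine receptor gene Xcr1, while Clec9a went the other way, from 10, 32 and 13 counts in vehicle M0 and 10, 31 and 47 in ISRIB M0 to 0 in all M1 libraries. Flt3 and Zbtb46, which define dendritic cells, were at 0 in all libraries. T cell markers were at 0. Of 4 B cell markers 2 had a count and Ms4a1 had none, with a summed level of at most 8.32 CPM, and summed neutrophil markers reached at most 9.62 CPM. The part that these marker shifts have in the results was not tested, and in bulk RNA fewer cells of a type and less RNA per cell cannot be told apart.

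M1 libraries held more of most of these genes than M0 libraries did, under vehicle and under ISRIB alike. All 3 M1 libraries lay above all 3 M0 libraries in CPM for 7 of 10 genes in vehicle, against 9.82% of the 10978 symbols with a count. They did so for 8 of 10 in ISRIB, against 10.1%, and for 7 in both. The exceptions in vehicle were Psmb9, H2-Aa and Ciita, and in ISRIB H2-Aa and Ciita. In ISRIB Psmb9 stood apart by a narrow margin, with 85.5 CPM in the highest M0 library and 87.5 in the lowest M1 library. ISRIB and vehicle libraries stood apart for 0 of 10 genes in M1, against 5.16% of the symbols with a count, and for 0 of 10 in M0, against 5.06%. The mean count of these symbols had a median of 1.17 a library, so many of them could hardly stand apart. The shares over all symbols are therefore no match for genes with more counts.

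**Figure D1:**
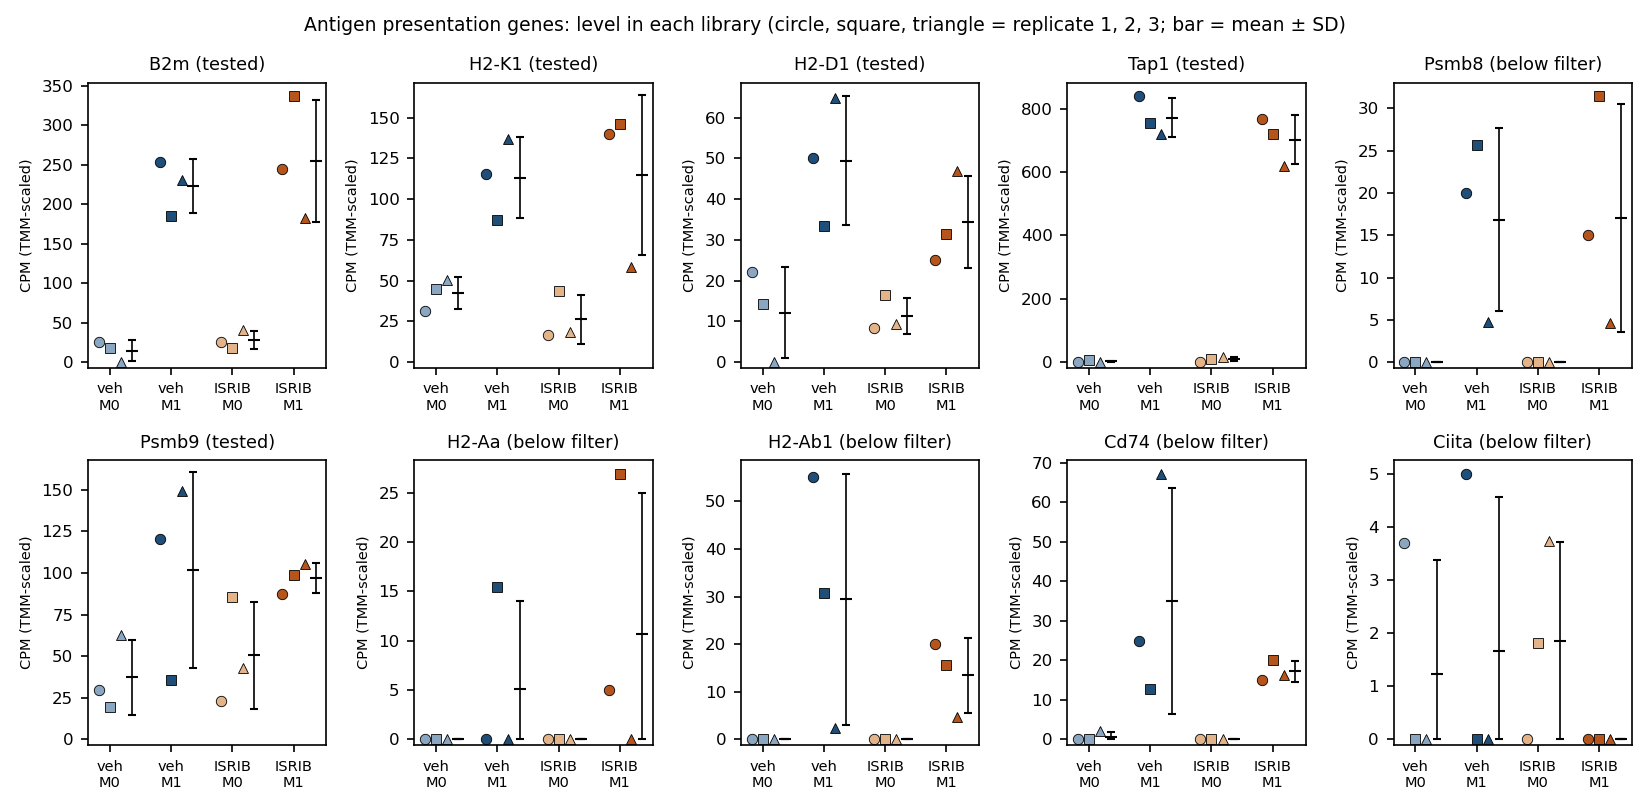
Level of each of the 10 genes in CPM (vertical axes, linear, each with its own range) in the 4 groups (horizontal axis). Points are libraries, with circle, square and triangle for replicates 1, 2 and 3, and the dash with its bar is the mean ± SD of 3, cut at 0. M1 points stand apart from M0 points for 7 genes in both treatments, and vehicle and ISRIB points overlap in every panel.

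Only 5 of the genes had enough counts for the test across genes: B2m, H2-K1, H2-D1, Tap1 and Psmb9. The filter asked for 21.2 CPM in at least 3 libraries, taken for this step against library totals without TMM adjustment. Tap1 passed it in 0 of 6 M0 libraries and 6 of 6 M1 libraries, and H2-D1 in 1 and 6, so both passed through the groups in which they were high. Psmb8, H2-Aa, H2-Ab1, Cd74 and Ciita were too low to test. For all 10 an exact two-sided permutation test of the difference in mean log2(CPM + 1), M1 minus M0, was run by exchanging M0 and M1 labels within each treatment. Its 400 arrangements allow no p below 0.005, and the p-values of these 10 tests are given unadjusted. P-values measure only the spread between these samples.

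The class I chains were read first. B2m, at chr2:122147686-122153083 on the plus strand, encodes beta-2 microglobulin, the light chain common to class I molecules. Its counts in replicates 1, 2 and 3 were 14, 10 and 0 in vehicle M0 and 101, 72 and 96 in vehicle M1. Under ISRIB they were 12, 10 and 22 in M0 and 98, 150 and 78 in M1. Every M1 library was thus above every M0 library, and 1 vehicle M0 library, replicate 3, had no B2m count. The level rose from 14.6 ± 13.3 to 222.9 ± 34.6 CPM in vehicle (SD, n = 3) and from 28.1 ± 11.8 to 254.8 ± 77.5 in ISRIB. In edgeR's quasi-likelihood test, with p-values adjusted by Benjamini-Hochberg over 2356 genes, the log2 fold change of B2m was 3.88 ± 0.47 (SE) in vehicle, adjusted p = 1.68e-07. It was 3.17 ± 0.43 in ISRIB, adjusted p = 1.06e-06 (edgeR).

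H2-K1, at chr17:33996017-34000347 on the minus strand, encodes the heavy chain of the classical class I molecule H-2K. It had 17, 25 and 25 counts in vehicle M0 and 46, 34 and 57 in vehicle M1. In ISRIB it had 8, 24 and 10 in M0 and 56, 65 and 25 in M1. The groups did not overlap, but ISRIB M0 replicate 2 and ISRIB M1 replicate 3, at 24 and 25 counts, lay close together. Means were 42.3 ± 9.81 and 113.2 ± 24.9 CPM in vehicle and 26.3 ± 15.03 and 114.8 ± 48.8 CPM in ISRIB (SD, n = 3). The rise was smaller than that of B2m, with a log2 fold change of 1.42 ± 0.42 in vehicle, adjusted p = 0.00756, and 2.10 ± 0.44 in ISRIB, adjusted p = 0.000345 (edgeR). Whether the rises of both genes differ from each other was not tested.

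H2-D1, at chr17:35262730-35267499 on the plus strand, encodes the heavy chain of H-2D. Its counts were 12, 8 and 0 in vehicle M0, with the 0 again in replicate 3, and 20, 13 and 27 in vehicle M1. Under ISRIB they were 4, 9 and 5 in M0 and 10, 14 and 20 in M1. M1 libraries were above M0 libraries in both treatments, by small numbers of counts. The log2 fold change was 1.98 ± 0.74 in vehicle, adjusted p = 0.0300, and 1.57 ± 0.75 in ISRIB, which missed the threshold with adjusted p = 0.0923 (edgeR). The vehicle call rested on single libraries: the edgeR adjusted p was 0.0895 without vehicle M0 replicate 3, 0.0529 without vehicle M0 replicate 2, 0.0640 without vehicle M1 replicate 1 and 0.108 without vehicle M1 replicate 3. H2-K1 and H2-D1 belong to a family of related genes that share stretches of sequence, so their counts are uncertain. Of all stretches of 50 bases in their exons, 9.63% of those of H2-K1 and 12.8% of those of H2-D1 occur in the exons of another gene, among them H2-Q7 and each other.

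By the exact permutation test within treatments, B2m was higher in M1 by 3.98, H2-K1 by 1.75 and H2-D1 by 2.16 on the log2(CPM + 1) scale, each with p = 0.005, the smallest the 400 arrangements allow. The 3 chains summed to 69.1 ± 16.0 CPM in M0 and 385.6 ± 69.4 in M1 with vehicle, and to 65.8 ± 14.5 and 404.0 ± 113 with ISRIB (SD, n = 3).

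The genes of peptide supply lie side by side on chromosome 17. Tap1, at chr17:34187553-34197225 on the plus strand, encodes a subunit of the peptide transporter. Its counts were 0, 3 and 1 in vehicle M0 and 335, 294 and 300 in vehicle M1. They were 1, 6 and 8 in ISRIB M0 and 307, 321 and 264 in ISRIB M1. Tap1 therefore had 8 counts or fewer in each M0 library and 264 counts or more in each M1 library. The level went from 2.46 ± 2.71 to 771.9 ± 60.6 CPM in vehicle and from 9.33 ± 6.60 to 702.1 ± 76.3 CPM in ISRIB (SD, n = 3). The log2 fold change of Tap1 was 8.12 ± 0.38 in vehicle, adjusted p = 1.60e-15, and 6.16 ± 0.32 in ISRIB, adjusted p = 1.34e-14 (edgeR). Without vehicle M0 replicate 2, which holds 3 of the 4 vehicle M0 counts, the vehicle value was 9.31. Since the vehicle M0 value rests on 4 counts in all, the ratio of summed counts is wide, 307.0 with a 95% interval of 119.5 to 1129 in vehicle and 73.1 with 44.1 to 131.2 in ISRIB. These intervals cover counting error only, and yet they are wider than those that the SE of Tap1 gives. That SE follows from the test statistic and is too small where a group holds so few counts.

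Psmb9, at chr17:34181987-34187764 on the minus strand, encodes an inducible catalytic subunit of the immunoproteasome. It had 16, 11 and 31 counts in vehicle M0 and 48, 14 and 62 in vehicle M1, so vehicle M1 replicate 2 lay within the M0 range. In ISRIB it had 11, 47 and 23 counts in M0 and 35, 44 and 45 in M1, with ISRIB M0 replicate 2 well above the other two M0 libraries. Once scaled to CPM the ISRIB groups did not overlap, but the margin was narrow. ISRIB M0 replicate 2 was at 85.5 CPM and ISRIB M1 replicate 1 at 87.5 CPM. The log2 fold change of Psmb9 was 1.45 ± 0.51 in vehicle, adjusted p = 0.0209, and 0.93 ± 0.49 in ISRIB, adjusted p = 0.128 (edgeR). The vehicle call was lost without vehicle M0 replicate 1 (adjusted p = 0.0653, edgeR), vehicle M0 replicate 2 (0.0926), vehicle M1 replicate 1 (0.0733) or vehicle M1 replicate 3 (0.139). Without ISRIB M0 replicate 2 the ISRIB value was 1.55 with an edgeR adjusted p = 0.0250.

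Psmb8, at chr17:34197721-34201454 on the plus strand, encodes another inducible catalytic subunit. It was at 0 in all 6 M0 libraries and had 8, 10 and 2 counts in vehicle M1, and 6, 14 and 2 in the ISRIB M1 libraries. Against a floor of 3 counts over the group, Psmb8 was at least 8.81-fold higher with vehicle, comparing M1 with M0, and at least 9.02-fold higher with ISRIB. By the exact permutation test the M1 minus M0 difference was 7.28 for Tap1 and 3.87 for Psmb8 with p = 0.005, and 1.24 for Psmb9 with p = 0.025. Because Tap1 and Psmb9 share exon bases on opposite strands, the part of each count that belongs to the other gene cannot be told apart.

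**Figure D2:**
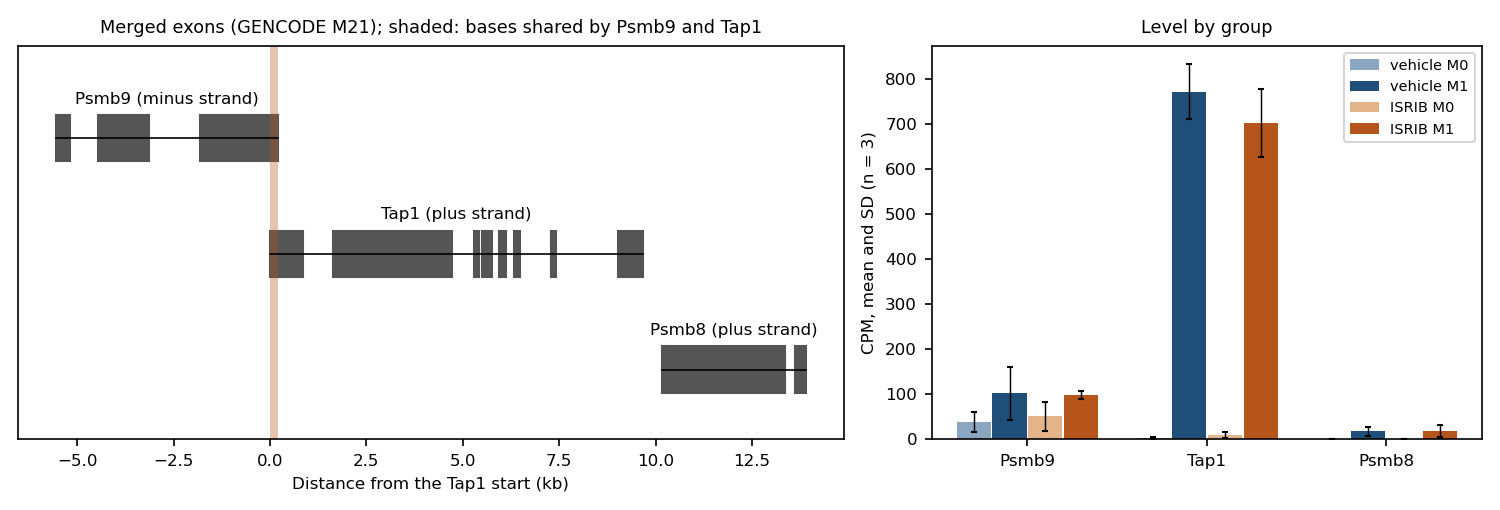
Left, merged exons of Psmb9, Tap1 and Psmb8 as blocks against distance from the Tap1 start in kb, with the 212 shared bases of Psmb9 and Tap1 shaded. Right, mean CPM of each gene in the 4 groups (bars from 0, error bars SD of 3 libraries, cut at 0), with Tap1 at 771.9 and 702.1 CPM in M1 against 2.46 and 9.33 in M0.

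The class II genes were far less abundant in counts, and all fell below the filter. H2-Ab1, the beta chain of I-A, lies at chr17:34257689-34269419 on the plus strand. It was at 0 in all M0 libraries, with 22, 12 and 1 counts in vehicle M1, and 8, 7 and 2 in the ISRIB M1 libraries. That is at least 15.4-fold higher in vehicle and at least 6.97-fold higher in ISRIB against the same floor. Replicate 3 was the lowest of the M1 libraries in both treatments. Cd74, the invariant chain that guards the class II groove, lies at chr18:60803848-60812652 on the plus strand. It had 0, 0 and 1 counts in vehicle M0 and 10, 5 and 28 in vehicle M1, against none in ISRIB M0 and 6, 9 and 7 in ISRIB M1. The ratio of summed counts in vehicle was 56.8 with a 95% counting interval of 9.67 to 2297, and in ISRIB Cd74 was at least 9.02-fold higher.

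H2-Aa, the alpha chain of I-A, lies at chr17:34282744-34287823 on the minus strand. It was at 0 in all M0 libraries and was counted in only 3 of 6 M1 libraries, with 0, 6 and 0 counts in vehicle and 2, 12 and 0 in ISRIB. M1 and M0 therefore overlapped at 0. Ciita, the class II coactivator at chr16:10480059-10528418 on the plus strand, had 2, 0 and 0 counts in M0 and again 2, 0 and 0 in M1 with vehicle, and 0, 1 and 2 in M0 and none in M1 with ISRIB. No fold is given for Ciita, since no group exceeded 3 counts in sum, and a difference was not detectable at these counts. Its opposite-strand neighbour Dexi was at 0 in all M0 libraries and had 2, 3 and 2 counts in vehicle M1, and 3, 20 and 3 in the ISRIB M1 libraries.

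By the exact permutation test the M1 minus M0 difference was 3.92 for H2-Ab1 and 4.25 for Cd74, each with p = 0.005. The same exact test gave 1.90 for H2-Aa with p = 0.2 and -0.56 for Ciita with p = 0.56. The 3 class II chain genes, H2-Aa, H2-Ab1 and Cd74, summed to 0.675 ± 1.17 CPM in M0 and 69.7 ± 10.5 in M1 with vehicle, and to 0 and 41.3 ± 20.9 with ISRIB (SD, n = 3). In M1 the vehicle libraries held 32, 23 and 29 counts of the 3 genes together and the ISRIB libraries 16, 28 and 9, so that the groups overlapped through ISRIB replicate 2.

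Over the tested genes as a group, 5 of 5 passed the threshold as higher in vehicle M1, where 24.3% of 2356 genes did so and 20.5% passed as lower. In ISRIB 3 of 5 passed as higher, B2m, H2-K1 and Tap1, where 23.9% of genes did so and 20.9% passed as lower. Their median log2 fold change was 1.98 in vehicle, beside 0.01 over all genes, and 2.10 in ISRIB, beside -0.01. As Tap1 and H2-D1 entered the test through their M1 libraries, these counts and medians are a description only. Without vehicle M0 replicate 2, vehicle M1 replicate 1 or vehicle M1 replicate 3, 3 of the 5 passed in vehicle. With no filter on counts, and 10978 genes tested by edgeR, 7 of the 10 passed as higher in vehicle, where 5.07% of genes did so, and 6 in ISRIB, where 4.89% did. Those added to the calls in both treatments were Psmb8, with adjusted p = 0.0127 and 0.0124, H2-Ab1, with 0.00105 and 0.0122, and Cd74, with 0.00159 and 0.00270 (edgeR), while H2-D1 in vehicle dropped out with 0.0890. Many of the 10978 genes had too few counts to pass, which lowers both shares over all genes.

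ISRIB gave no difference past the threshold for any of the tested genes. In M1, 0 of 5 passed where 0% of 2356 genes did (edgeR), and 134 genes but 0 of the 5 had an unadjusted p under 0.05. DESeq2 and limma on the deposited log2 values called 0 as well. The intervals show what sizes remain possible. For Tap1 in M1 the log2 difference, ISRIB minus vehicle, was -0.14 ± 0.20 (SE) with a 95% interval of -0.55 to 0.28. For B2m it was 0.19 ± 0.36 with an interval of -0.55 to 0.94, and for H2-K1 0.02 ± 0.40 with -0.80 to 0.84. The intervals were wider for Psmb9, -1.05 to 0.92 around -0.07, and for H2-D1, -1.94 to 0.90 around -0.52. The adjusted p was at least 0.979 for each of the 5 (edgeR).

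In M0, 0 of 5 passed where 0% of 2356 genes did (edgeR), with 143 genes and 1 of the 5, Tap1, at an unadjusted p under 0.05. DESeq2's Wald test called 3 genes in this comparison, none of them among the 5, and limma called 0. Tap1 had 4 counts over the vehicle M0 libraries and 15 over the ISRIB M0 libraries, and their ranges overlapped. Its log2 difference was 1.82 ± 0.70, adjusted p = 0.561 (edgeR), and ran from 1.27 without vehicle M0 replicate 1 to 3.00 without vehicle M0 replicate 2. At so few counts the SE of Tap1 is too small here too. B2m differed by 0.90 ± 0.54 and H2-K1 by -0.66 ± 0.46, with edgeR adjusted p = 0.909 and 0.959, and H2-D1 and Psmb9 by -0.11 ± 0.78 and 0.45 ± 0.51.

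The difference between the M1 responses under ISRIB and vehicle was tested as an interaction, and 0 of 5 passed where 0% of 2356 genes did (edgeR). At an unadjusted p under 0.05 there were 167 genes and 1 of the 5, again Tap1, while DESeq2 and limma called 0. The Tap1 interaction was -1.96 ± 0.73 on the log2 scale, adjusted p = 0.505 (edgeR). It rests on the few Tap1 counts of the M0 groups, so its SE is too small as well. The interaction was -3.14 without vehicle M0 replicate 2 and -1.41 without vehicle M0 replicate 1. H2-D1 and Psmb9 passed in vehicle and not in ISRIB, but their interactions were -0.41 ± 1.06 and -0.52 ± 0.70 with edgeR adjusted p = 0.973 and 0.960. The interactions of B2m and H2-K1 were -0.71 ± 0.65 and 0.68 ± 0.60.

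**Figure D3:**
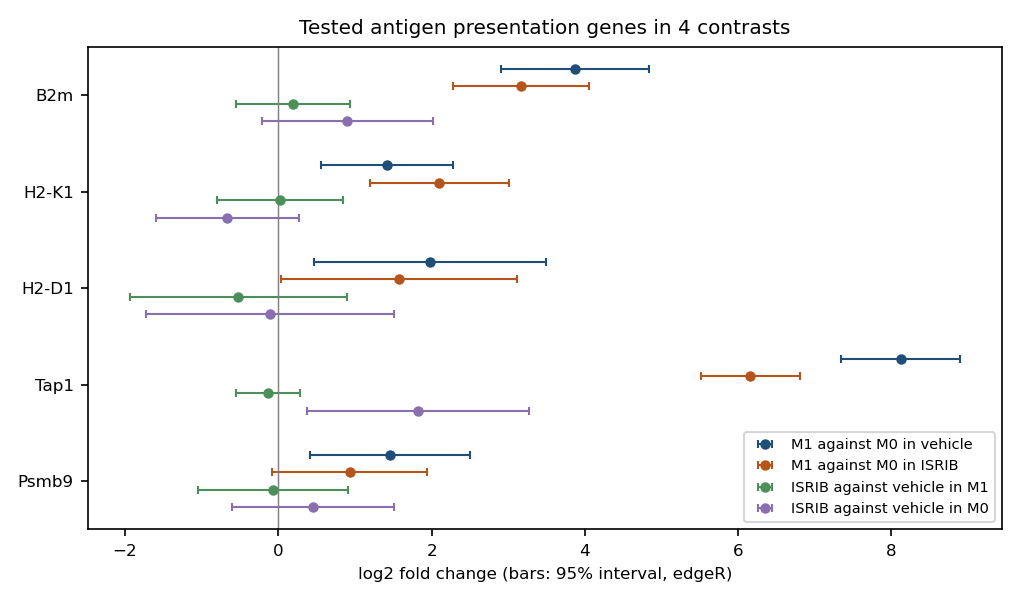
Log2 fold change (horizontal axis) of the 5 tested genes in 4 contrasts, with the 95% interval from edgeR. The intervals follow from the test statistic. They are too narrow for Tap1 in the contrasts that include M0, where it had few counts. M1 against M0 lies between 0.93 for Psmb9 in ISRIB and 8.12 for Tap1 in vehicle, and the intervals of ISRIB against vehicle include 0 except that of Tap1 in M0, whose adjusted p was 0.561.

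Wider lists of 73 other genes of presentation, its regulation and interferon gamma signalling were examined beside the 10. Of these 71 were in the table, 62 had a count and 25 could be tested. In vehicle 14 of the 25 passed as higher in M1 and 2 as lower, beside 24.3% and 20.5% of all tested genes, and in ISRIB 13 and 2, beside 23.9% and 20.9%. Their median log2 fold change was 1.84 in vehicle, beside 0.01 over all genes, and 2.21 in ISRIB, beside -0.01. Of the 25, 13 had fewer than 3 M0 libraries above the filter's level and 4 were at 0 in all M0 libraries, so that their M1 libraries brought them into the test, and these counts and medians are a description only. In addition 0 of 25 passed in any ISRIB comparison, where edgeR called 0 genes in all.

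Among other class I heavy chains, 4 of 16 could be tested and 3 rose in both treatments. H2-Q4 had 11, 15 and 1 counts in vehicle M0 and 85, 85 and 123 in vehicle M1, with log2 fold changes of 3.83 ± 0.50 in vehicle and 3.29 ± 0.49 in ISRIB. H2-T22 rose by 2.37 ± 0.28 and 2.69 ± 0.29. H2-T23, which encodes the non-classical molecule Qa-1, rose by 5.34 ± 0.96 and 4.27 ± 0.87, from 2 counts over the vehicle M0 group. At 2 counts its vehicle SE is too small. The edgeR adjusted p of these genes was at most 0.000268 in each treatment. H2-T24 did not pass, at -1.03 ± 0.64 in vehicle and -0.77 ± 0.61 in ISRIB.

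Of 11 genes of peptide loading and class I regulation, 6 could be tested, and 3 rose in vehicle and 2 in ISRIB. Calr encodes calreticulin, a chaperone of the loading complex. It rose by 2.35 ± 0.48 in vehicle and 2.61 ± 0.53 in ISRIB, adjusted p = 0.000273 and 0.000262 (edgeR). The chaperone gene Hspa5 rose by 1.79 ± 0.70 and 2.21 ± 0.73, adjusted p = 0.0389 and 0.0159 (edgeR). Pdia3, of the same complex as Calr, passed in vehicle only. Tapbp, which encodes tapasin, did not pass although it had 52 to 98 counts in vehicle M0 and 72 to 106 in vehicle M1. Tap2, the partner subunit of Tap1, had 0 to 4 counts in any library and could not be tested. Nlrc5, a class I coactivator, was at 0 in M0 and had 10, 0 and 8 counts in vehicle M1, and 0, 4 and 6 in the ISRIB M1 libraries.

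Both tested genes of the proteasome activators rose. Psme1 had 5, 7 and 2 counts in M0 and 22, 21 and 9 in M1 with vehicle, and 8, 5 and 9 and then 48, 32 and 49 with ISRIB. Its log2 fold change was 2.28 ± 0.59 in vehicle and 2.83 ± 0.55 in ISRIB, adjusted p = 0.00251 and 0.000138 (edgeR). Psme2, with a mean under 10 counts, was at 0 in M0 and at least 9.25-fold higher in the M1 group with vehicle and at least 10.7-fold higher in that with ISRIB. The constitutive subunit gene Psmb7, whose product the immunoproteasome replaces with that of Psmb10, fell by 3.09 and by 2.02 on the log2 scale, adjusted p = 0.000964 and 0.0192 (edgeR). Psmb10 itself had at most 12 counts in a library and could not be tested.

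Beyond H2-Aa, H2-Ab1 and Cd74, none of the 8 other class II genes in the table passed the filter. H2-Eb1 had at most 9 counts in a library, with M0 and M1 overlapping, and H2-DMa and H2-DMb1 at most 4. Of 15 genes of class II regulation and processing, 7 could be tested. March1, a ubiquitin ligase that removes class II molecules from the surface, rose by 2.78 ± 0.66 in vehicle and 3.50 ± 0.72 in ISRIB, adjusted p = 0.00113 and 0.000264 (edgeR). The protease gene Ctss rose in vehicle by 1.14 ± 0.43, adjusted p = 0.0318, and not past the threshold in ISRIB, at 0.38 ± 0.40 (edgeR). Ctsd, another lysosomal protease gene, fell by 1.32 and by 1.15, adjusted p = 0.00987 and 0.0233 (edgeR).

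Of 5 costimulation genes, 3 could be tested. Cd274, which encodes the checkpoint ligand PD-L1, was at 0 in all M0 libraries and had 26, 11 and 57 counts in vehicle M1. ISRIB M1 libraries had 34, 34 and 50. These are increases of at least 41.4-fold in vehicle and at least 48.4-fold in ISRIB. Cd40, with a mean under 10 counts, passed in both treatments, and Icam1 in ISRIB only. Socs3, a feedback inhibitor of cytokine signalling that also averaged under 10 counts, passed in both treatments, and Irf1 did not pass.

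**Figure D4:**
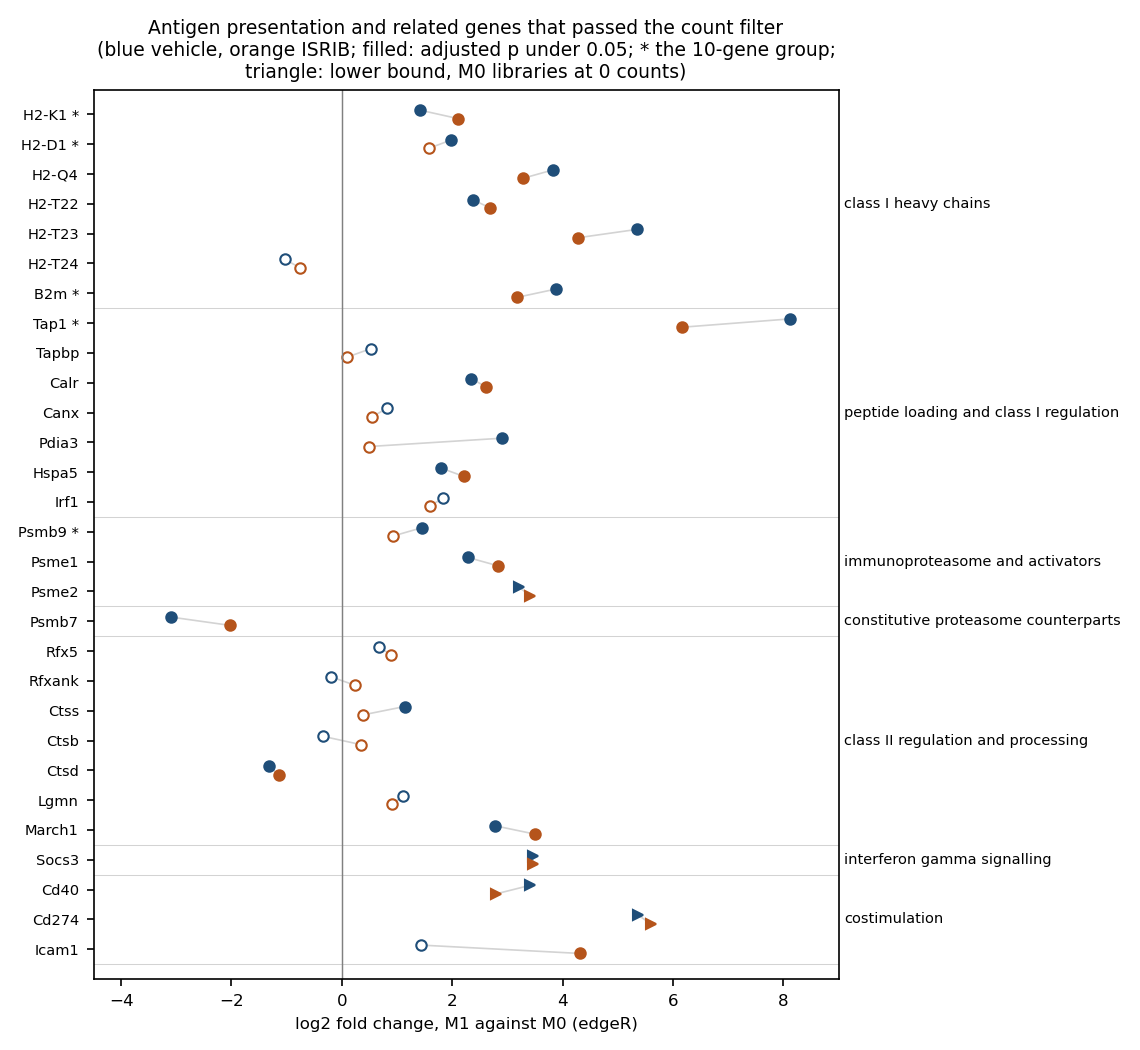
Log2 fold change of M1 against M0 (horizontal axis) for tested genes, the 5 of the group marked with an asterisk and those of the wider lists reported singly here, in vehicle (blue) and ISRIB (orange). Filled symbols passed an adjusted p of 0.05, and triangles are lower bounds for genes at 0 counts in M0. Most genes lie to the right of 0, and Psmb7, Ctsd and H2-T24 lie to the left in both treatments, H2-T24 with open symbols.

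Genes on the opposite strand of the wider lists' genes were looked at after the values had been seen. Of 11 in the table, 8 could be tested. In vehicle 3 rose and 1 fell, beside 24.3% and 20.5% of all tested genes, and in ISRIB 4 rose and 3 fell, beside 23.9% and 20.9%. The transcript 9330175E14Rik, which shares 78 exon bases with Nlrc5, went from 19.2 to 358.4 CPM in vehicle and from 21.2 to 387.1 in ISRIB, log2 fold changes of 4.19 and 4.18. A930015D03Rik, which shares 1003 bases with H2-T22, rose by 2.86 ± 0.34 and 2.41 ± 0.31. Emc9, with 14 bases shared with Psme1, rose by 2.86 and 2.88, and Fdft1, with 774 shared with Ctsb, fell by 2.57 and by 2.44. H2-Q4, H2-T22, Psme1, Psmb7, March1 and Cd274 also share exon bases with a gene on the other strand. So do Pdia3, Tapbp, Tap2, Nlrc5, Irf1, H2-DMa and Icam1. For all of them, as for Tap1, the source of a count cannot be told apart.

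Lastly, the 3 genes with the most similar pattern were found for each tested gene, by Pearson correlation of log2 CPM over the 12 libraries among 834 other genes that averaged 50 counts or more. All points share the split between M0 and M1, and the values are a description. For Tap1 these were Parp9 (r = 0.99), Zfp276 (0.99) and Gm10865 (0.99). For B2m they were 9330175E14Rik (r = 0.96), Tgif2 (0.96) and Trim43c (0.96). For H2-K1 they were Rrbp1 (r = 0.94), Trmt13 (0.94) and Dnajc19 (0.92), and for H2-D1 Lig3 (0.91), Dennd2d (0.91) and Plekhh1 (0.90). Psmb9 had no gene above 0.82, with 1700034P13Rik (r = 0.82), Acss2os (0.80) and Suv39h2 (0.80). Within the 6 M1 libraries alone the r of Tap1 with Parp9 was -0.13 and that of B2m with 9330175E14Rik was 0.80.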

How the data were processed

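RNA of 12 libraries was analysed from gene-level tables. The authors deposited whole-number read counts per gene symbol and, separately, log2 values for the same symbols, and by the deposited values each of these is log2(count divided by a library size factor, plus 1), with a relative deviation of at most 3.56e-09. FastQC, HTSeq, DESeq2 and the mm10 build are named in the submitters' processing notes; the aligner and the strand setting are not given in the sources used here.

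Groups and replicate numbers were taken from the sample titles. The counts went unchanged into edgeR 4.0.16 (R 4.3.3): filterByExpr (minimum count 10, minimum total 15), which kept 2356 genes with 97.6% of all counts, TMM scaling, 1 fit of all 12 samples with a mean per group, quasi-likelihood tests and Benjamini-Hochberg adjustment at 0.05 over the 2356 genes. Standard errors follow from the test statistic and can be too small where a group holds few counts. Folds against groups at 0 use a floor of 3 counts over the group. Ratios of summed counts carry exact 95% intervals. Locations and overlaps come from GENCODE M21 (GRCm38, the assembly of mm10) and promoters from RefSeq GRCm38.p6. The scripts were tested on simulated data.

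All 10 genes were to be named, with their opposite-strand partners, wider-list genes that passed and averaged 10 counts or more, and the 3 genes most alike; for others named in the text the values had been seen first. The genes and lists were chosen with earlier results of these data known. Alternatives were DESeq2 1.42.0 size factors and its Wald test, limma 3.58.1 on the deposited log2 values, no filter, a replicate block, only the compared groups, leaving out each library, and for the permutation test DESeq2 scaling and a pseudocount of 0.5 CPM in place of 1. Some items are not reported here.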

Additional observations from a re-analysis of the deposited data

How the results depend on the processing

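Of 345 recomputed differences, 317 kept their direction and their side of the threshold, 18 changed direction, 9 lost a call and 1 gained one. Of 130 recomputed counts of calls, 117 were within 1.5 times the reported count. With no filter on low counts 6 of the 10 genes passed in ISRIB instead of 3, and edgeR called 10 genes for ISRIB against vehicle in M0 and 9 for the interaction; DESeq2's Wald test called 3 in M0. Directions turned only in ISRIB comparisons and interactions: with limma on the deposited log2 values H2-K1 in M1 was -0.066, Psmb9 in M1 0.15 and H2-D1 in M0 0.46. The cause was not tested.

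Leaving out each library in turn, 3 to 5 genes of the group passed in vehicle, and edgeR called 0 to 1 genes for ISRIB in M1, 0 to 4 in M0 and 0 to 4 for the interaction. Those 4 in M0 and for the interaction came without ISRIB M0 replicate 1, 2 and 1 without ISRIB M0 replicate 2, and the 1 in M1 without ISRIB M1 replicate 2. For ISRIB against vehicle in M1 the log2 differences ran from -0.062 to 0.38 for B2m, -0.19 to 0.33 for H2-K1 and -0.47 to 0.31 for Psmb9. In M0 they ran from -0.66 to 0.61 for H2-D1 and -0.14 to 1.04 for Psmb9, and for the interaction from -1.13 to 0.14 for H2-D1 and -1.11 to 0.072 for Psmb9.

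Deviations from the group mean correlated at -0.0600 to 0.113 over 18 pairs of samples with the same replicate number, 2 of them above 0.1. Pairs with different replicate numbers were not computed, so whether replicates of one number share handling was not tested. With the replicate block H2-K1 in M1 was -0.034, edgeR called 3 genes for the interaction, and the group's calls stayed at 5 in vehicle and 3 in ISRIB.

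Of the 10 genes 5 had too few counts to test, and at 1.79 to 2.57 CPM per count the M0 levels of Tap1, Psmb8 and the class II genes rest on 8 or fewer counts a library.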
